A study of Mus musculus with 12 samples.

Results

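The genes described here are the Notch receptors Notch1, Notch2 and Notch3, the Jagged ligands Jag1 and Jag2, and the transcriptional repressors Hes1, Hey1, Hey2 and Heyl, 9 of the 52636 genes listed in both expression tables. They were selected by gene symbol, with earlier results of these data known, and every library was used for each of them. Bulk RNA-seq was performed on 12 libraries of cultured mouse lung mesenchymal cells, in 4 groups of 3. One cell type is airway smooth muscle cells (SMCs), bought as a primary C57BL/6 line of tracheal origin, of no stated age, and the other is lung PDGFR-β+ cells from 12-week-old mice labeled C57BL/6. According to the study's methods, the latter were sorted as Zs+ cells from tamoxifen-treated Pdgfrb-CreERT2, ROSA26R(Zs/+) mice, so they were marked by a Cre under the Pdgfrb promoter. Each cell type received either scrambled RNA (Scr), labeled wild type, or siRNA against Klf4 (siKlf4), labeled Klf4 knockdown. The study describes the bulk RNA-seq of each cell type as 3 independent experiments. The SMCs are a single commercial line, and the number of mice behind the PDGFR-β+ cells is not given in the sources used here. Thus p-values measure the spread between these libraries, which may in part be technical.

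Notch receptors are single-pass membrane proteins that are cut after they bind a ligand on a neighboring cell. The released intracellular domain enters the nucleus, joins the DNA-binding protein RBPJ and a Mastermind coactivator, and turns on genes that include the HES and HEY repressors. In the vessel wall and the airway, Notch2 and Notch3 are receptors of mural cells, NOTCH3 mutations cause an inherited small-vessel disease, and Jag1 carried by endothelium and by smooth muscle itself is a major ligand. KLF4, the target of the siRNA, is a zinc finger factor that binds CACCC-type elements and restrains the contractile program of smooth muscle.

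Klf4 was lower with siKlf4 in both cell types. In SMCs, its level was 89.6, 96.3 and 95.03 TPM with Scr and 26.5, 16.3 and 18.8 TPM under siKlf4, which left 21.9% of the mean. In PDGFR-β+ cells, it was 144, 146 and 134 TPM under Scr and 12.3, 13.8 and 12.8 TPM under siKlf4, which left 9.16%. On the log2(TPM + 1) scale used for all tests, Klf4 fell by 2.16 in SMCs (SE 0.16, limma, Benjamini-Hochberg adjusted p = 0.00075) and by 3.35 in PDGFR-β+ cells (SE 0.077, adjusted p = 3.3e-06). Throughout, SMC values are given in the order of the library whose column carries no replicate number, replicate 2 and replicate 3, and PDGFR-β+ values in the order of replicates 1 to 3. Each library sums to 1000000 TPM, transcript abundance corrected for length and depth, so that levels of different genes can be compared. It keeps no read counts, so depth is unknown and no counting error can be given; between 20590 and 21780 genes were above 0 in a library.

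The cell type labels were checked against fixed marker lists. Acta2, which encodes smooth muscle actin, ranged from 1031 to 1567 TPM in Scr SMCs and from 3969 to 4594 TPM in Scr PDGFR-β+ cells. The 10 smooth muscle markers together came to 1511 to 2302 TPM in Scr SMCs and 5582 to 6434 TPM in Scr PDGFR-β+ cells, so the contractile list was higher in the cells not named for it. Of the 9 tested between the Scr groups, 6 were lower in SMCs and none higher, beside 23.3% and 24.4% of all genes. Myocd, the master coactivator of smooth muscle genes, had a mean under 1 TPM in all 4 groups. Pdgfrb itself was 423 to 474 TPM in Scr PDGFR-β+ cells and 213 to 216 TPM in Scr SMCs. With it, the 8 pericyte and lineage markers summed to 475 to 509 TPM and 234 to 241 TPM, respectively. Of these markers, Higd1b was listed at 0 in every library, and Abcc9 and Kcnj8 had means under 1 TPM in both groups of PDGFR-β+ cells. In Scr PDGFR-β+ cells, Cspg4 averaged 26.9 TPM, Mcam 9.18, Rgs5 2.27 and Cox4i2 1.26. Of the 5 tested between the Scr groups, Pdgfrb, Cspg4 and Mcam were higher in PDGFR-β+ cells and Cox4i2 in SMCs (beside 23.3% and 24.4% of all genes). The 8 fibroblast markers summed to 3735 to 4672 TPM in Scr PDGFR-β+ cells and 5010 to 5226 TPM in Scr SMCs. All 8 were tested, and 6 were higher in SMCs (Col3a1, Dcn, Dpt, Lum, Pdgfra and Tcf21) and 1, Col1a1, lower. Beside them, 24.4% of all genes were higher in SMCs and 23.3% lower. Lum averaged 0.516 TPM in Scr PDGFR-β+ cells and reached the minimum only through the SMC libraries. Endothelial markers were low, at 18.4 to 21.8 TPM in Scr PDGFR-β+ cells and 6.60 to 8.29 TPM in Scr SMCs, with Tie1 and Sox17 at 0 in all libraries. Leukocyte markers summed to 29.0 to 30.5 and 5.30 to 8.18 TPM, respectively, and the 8 epithelial markers to at most 1.19 TPM in any library. Of the leukocyte markers, Lyz2 averaged 19.0 TPM, Cd68 7.56 and Csf1r 2.28 in Scr PDGFR-β+ cells. Ptprc, Adgre1, Itgam, Fcer1g and Tyrobp each had a mean under 1 TPM there.

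The sequences just upstream of the start sites are shown for Notch1, Notch2 and Jag1, because these genes rose together with siKlf4 in PDGFR-β+ cells, and for Hey2, because it held the match to the RBPJ core. They are RefSeq sequences of GRCm38.p6, printed 5′ to 3′ on the strand of the gene up to the first annotated exon base. Capitals mark CACCC (or GGGTG on the other strand) and the RBPJ core TGGGAA (or TTCCCA).
Notch1, chr2:26503825-26504072, reverse strand: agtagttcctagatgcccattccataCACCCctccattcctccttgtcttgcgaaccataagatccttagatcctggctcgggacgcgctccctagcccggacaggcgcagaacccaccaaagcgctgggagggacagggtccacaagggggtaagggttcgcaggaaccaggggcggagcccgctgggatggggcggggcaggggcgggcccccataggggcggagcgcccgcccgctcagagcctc
Notch2, chr3:98013288-98013526, forward strand: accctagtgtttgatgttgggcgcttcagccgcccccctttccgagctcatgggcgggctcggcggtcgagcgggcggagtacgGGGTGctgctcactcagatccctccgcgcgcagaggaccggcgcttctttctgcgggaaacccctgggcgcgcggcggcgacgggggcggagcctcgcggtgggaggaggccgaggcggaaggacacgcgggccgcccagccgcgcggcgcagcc
Jag1, chr2:137116645-137116770, reverse strand: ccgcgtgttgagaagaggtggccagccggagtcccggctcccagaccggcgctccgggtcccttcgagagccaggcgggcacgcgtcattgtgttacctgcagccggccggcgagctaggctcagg
Hey2, chr10:30842802-30843033, reverse strand: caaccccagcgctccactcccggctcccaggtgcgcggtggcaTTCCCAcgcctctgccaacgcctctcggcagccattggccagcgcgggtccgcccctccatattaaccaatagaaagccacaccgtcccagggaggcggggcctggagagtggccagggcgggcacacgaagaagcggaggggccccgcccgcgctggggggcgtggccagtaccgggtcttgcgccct
The Notch1 start lies inside the annotated gene, whose GENCODE model begins farther upstream. In windows of 250 bases before the start, matched for 6 of the 9 genes, CACCC occurred in Notch1, Notch2 and Jag2, and the RBPJ core in Hey2. Of all 32851 such windows, 52.0% held CACCC and 21.6% held the RBPJ core, so a match is common, and it is a match of letters, not a measured site.

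**Figure D1:**
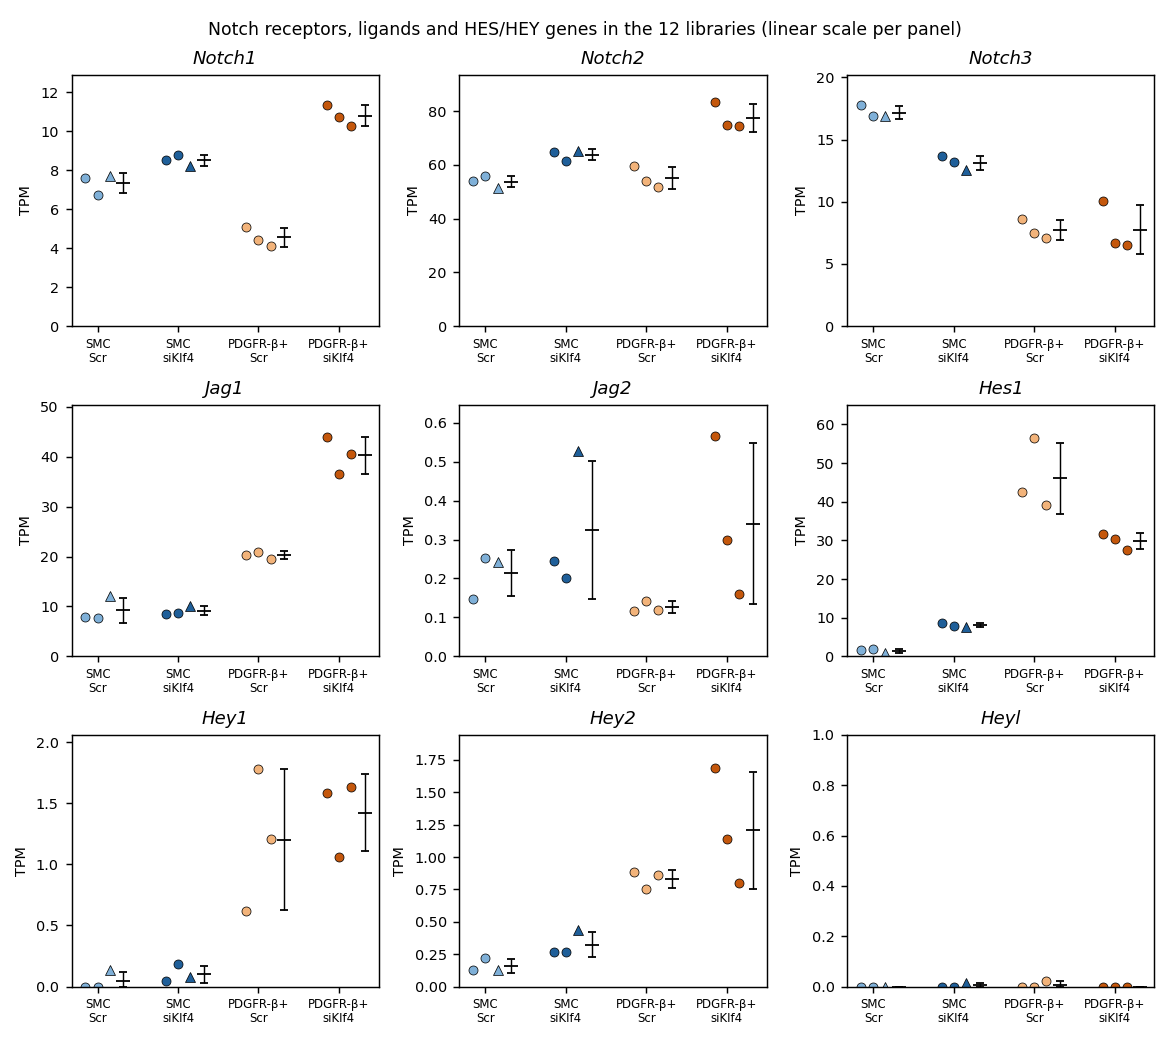
Level of each gene in TPM (y axis, linear, scaled per panel) in each library, by cell type and treatment (x axis). Circles are numbered libraries, triangles the SMC libraries without a replicate number, and the bar beside each group is the mean ± SD of 3 libraries. Hes1 is near 1 TPM in Scr SMCs and above 39 TPM in every Scr library of PDGFR-β+ cells, and moves in opposite directions with siKlf4.

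In Scr cells, Notch2 was the leading receptor transcript of both cell types, and the cell types differed most in Hes1. In Scr SMCs, the order of mean levels was Notch2 (53.8 ± 2.12 TPM, SD, n = 3), Notch3 (17.2 ± 0.538), Jag1 (9.21 ± 2.50), Notch1 (7.35 ± 0.538) and Hes1 (1.38 ± 0.537), followed by Jag2, Hey2, Hey1 and Heyl, all with means of 0.214 TPM or less. Of the first 5 of these, the values of Jag1 and Notch1 overlapped and the others did not. In Scr PDGFR-β+ cells, the order was Notch2 (55.1 ± 4.07 TPM), Hes1 (46.04 ± 9.13), Jag1 (20.3 ± 0.719), Notch3 (7.73 ± 0.791), Notch1 (4.55 ± 0.483), Hey1 (1.20 ± 0.580) and Hey2 (0.833 ± 0.0694), then Jag2 at 0.126 and Heyl at 0.00791 TPM. The values of Notch2 and Hes1 overlapped there, as did those of Hey1 and Hey2.

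Between the Scr groups, 47.7% of the 13800 genes tested passed an adjusted p of 0.05, and of the 5 members that reached a mean of 1 TPM, 4 passed, Notch1 and Notch3 being higher in SMCs and Jag1 and Hes1 lower. Of all genes tested, 24.4% were higher and 23.3% lower in SMCs. The libraries of the cell types did not overlap for these 4 members, as was so for 58.6% of all genes. The median difference of the 5 members was -0.033 on the log2(TPM + 1) scale, beside 0.011 for all genes tested. Hes1, a repressor that answers Notch in many cell types, was 33.4-fold higher by the ratio of mean TPM in PDGFR-β+ cells (SMCs minus PDGFR-β+ cells, log2(TPM + 1) difference -4.32, SE 0.21, limma adjusted p = 4.5e-06). Notch3 was 2.22-fold higher by mean TPM in SMCs (1.061, SE 0.11, adjusted p = 0.00016), and Notch1 1.61-fold (0.59, SE 0.12, adjusted p = 0.0058). Jag1 was lower in SMCs (-1.09, SE 0.17, adjusted p = 0.0013). For Notch2, the difference was -0.033, with a 95% interval of -0.23 to 0.17 (adjusted p = 0.78). The 2 cell types were deposited in separate tables and differ in source and culture, so that table, source and cell type cannot be told apart in this comparison. TPM was scaled library by library, and these Scr libraries also serve as controls in the knockdown comparisons.

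Of the receptors, Notch2 rose and Notch3 fell with siKlf4 in SMCs, while Notch1 and Notch2 rose in PDGFR-β+ cells. Notch2, the broadly expressed receptor, lies at GRCm38 chromosome 3, 98013527 to 98150361, forward strand. In SMCs, Notch2 was 51.5, 54.1 and 55.7 TPM under Scr and 65.1, 64.8 and 61.5 TPM under siKlf4. All 3 siKlf4 libraries lay above the 3 Scr libraries, and the increase was 0.24 on the log2 scale (SE 0.067, limma adjusted p = 0.034). The call was lost when any 1 of the 6 libraries was left out (adjusted p = 0.058 to 0.11) and with the numbered libraries alone (0.20, adjusted p = 0.064). In PDGFR-β+ cells, Notch2 was 59.6, 54.1 and 51.6 TPM under Scr and 83.5, 74.7 and 74.5 TPM under siKlf4. The groups did not overlap, and Notch2 rose by 0.49 (SE 0.084, adjusted p = 0.0034).

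Notch3, the receptor best known from arterial smooth muscle and pericytes, lies at chromosome 17, 32120820 to 32166852, reverse strand. Its level in SMCs was 16.9, 17.8 and 16.9 TPM under Scr and 12.6, 13.7 and 13.2 TPM under siKlf4. Every siKlf4 library was below every Scr library, and Notch3 fell by 0.36 on the log2 scale (SE 0.082, limma adjusted p = 0.018). Without Scr replicate 2 the adjusted p was 0.066, and without siKlf4 replicate 3 it was 0.061. In PDGFR-β+ cells, Notch3 was 8.62, 7.45 and 7.11 TPM under Scr and 10.1, 6.70 and 6.53 TPM under siKlf4. The groups overlapped because siKlf4 replicate 1 was highest of the 6 and the other two siKlf4 libraries were lowest, and the difference was -0.013 (95% interval -0.41 to 0.38, adjusted p = 0.96). An antisense gene, Gm17276, overlaps Notch3 but did not exceed 0.258 TPM in any library.

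Notch1, the receptor with the widest developmental roles, lies at chromosome 2, 26457903 to 26516663, reverse strand. In SMCs it was 7.71, 7.599 and 6.73 TPM under Scr and 8.21, 8.52 and 8.78 TPM under siKlf4. The groups did not overlap, but the difference of 0.19 did not pass the threshold (95% interval -0.045 to 0.42, limma adjusted p = 0.20). In PDGFR-β+ cells, Notch1 was 5.08, 4.44 and 4.14 TPM under Scr and 11.4, 10.7 and 10.3 TPM under siKlf4. There it rose 2.37-fold by mean TPM, by 1.09 on the log2 scale (SE 0.11, adjusted p = 0.00029). At its 3′ end Notch1 is overlapped on the opposite strand by 0610009E02Rik, which reached 4.22 TPM, and by Gm13568, which reached 1.05 TPM. The libraries were made strand-specific, but whether strand was used in quantification is not given in the sources used here.

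Summed over Notch1 to Notch4, receptor transcript was 80.5 ± 2.43 TPM (SD, n = 3) in Scr SMCs and 88.6 ± 2.24 TPM in siKlf4 SMCs, and 68.7 ± 5.68 and 96.4 ± 7.64 TPM in the corresponding PDGFR-β+ groups. In SMCs, Notch3 made up 21.4% ± 0.613 of the sum with Scr and 14.9% ± 0.418 with siKlf4, while the share of Notch2 was 66.8% ± 1.20 and 72.0% ± 1.95. In PDGFR-β+ cells, the share of Notch1 was 6.62% ± 0.161 with Scr and 11.2% ± 0.409 with siKlf4, that of Notch3 was 11.2% ± 0.298 and 7.99% ± 1.38, and that of Notch2 stayed between 79.4% and 81.5% in all 6 libraries. Of these shares, the values of Notch3 and Notch2 in SMCs and of Notch1 and Notch3 in PDGFR-β+ cells did not overlap between treatments. An exact two-sided permutation test of 3 libraries against 3 cannot go below p = 0.1, the value found for each of them (0.14 after adjustment over 21 comparisons of sums and shares), so these shifts are larger than the spread but cannot pass 0.05. In PDGFR-β+ cells, Notch3 itself averaged 7.73 TPM with Scr and 7.77 TPM with siKlf4, so its lower share there came with a larger sum and not with a lower level. Notch4, the receptor of endothelium, was 2.17 ± 0.517 TPM in Scr SMCs and 3.11 ± 1.23 in siKlf4 SMCs (log2 difference 0.34, limma adjusted p = 0.37), and 1.32 ± 0.7999 and 0.248 ± 0.140 TPM in PDGFR-β+ cells, where it was under the minimum for a test.

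**Figure D2:**
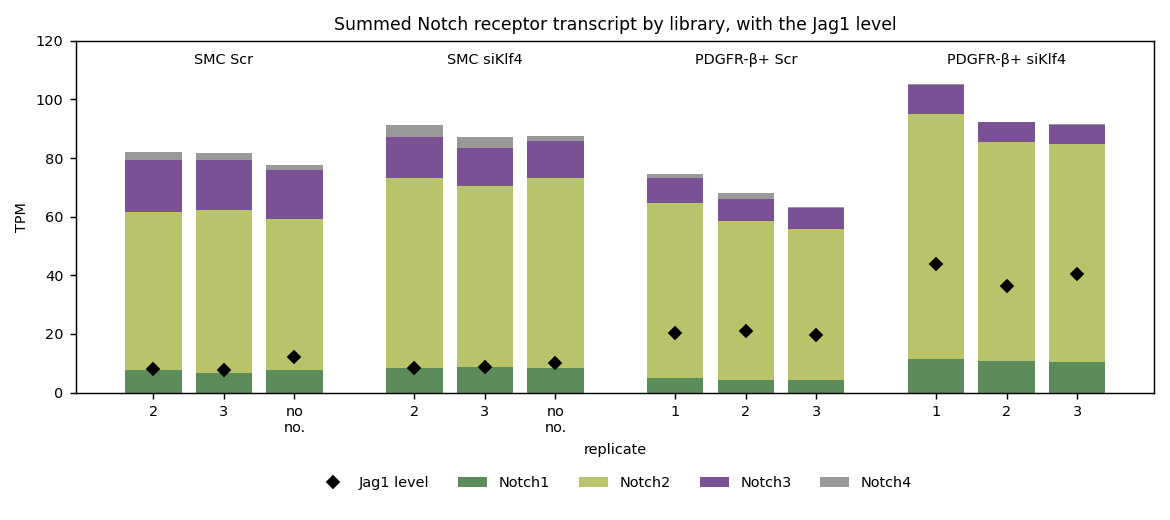
Stacked bars give the level of Notch1 to Notch4 in TPM (y axis) in each of the 12 libraries (x axis, replicate; "no no." is the library without a replicate number), and diamonds the level of Jag1. In PDGFR-β+ cells the bar and the diamond are both higher in all 3 siKlf4 libraries, while in SMCs the Notch3 segment is smaller with siKlf4 and Jag1 stays between 7.63 and 12.1 TPM.

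Of the ligands, Jag1 rose with siKlf4 in PDGFR-β+ cells, and Jag2 was barely detected. Jag1, a membrane-bound ligand of all Notch receptors, lies at chromosome 2, 137081456 to 137116644, reverse strand. In PDGFR-β+ cells, its level was 20.3, 20.99 and 19.6 TPM under Scr and 43.9, 36.5 and 40.5 TPM under siKlf4. The lowest siKlf4 library was well above the highest Scr library, and Jag1 rose 1.99-fold by mean TPM, by 0.95 on the log2 scale (SE 0.089, limma adjusted p = 0.00022). Relative to the receptor sum, Jag1 came to 29.6% ± 2.09 with Scr and 41.8% ± 2.28 with siKlf4, again without overlap (exact permutation p = 0.1, the smallest possible). In SMCs, Jag1 was 12.1, 7.91 and 7.63 TPM under Scr and 10.2, 8.51 and 8.73 TPM under siKlf4. Here the libraries without a replicate number were the highest of both groups. The difference was 0.012 (95% interval -0.40 to 0.43, adjusted p = 0.97), and with the numbered libraries alone it was 0.13 (adjusted p = 0.34).

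Jag2, the second Jagged ligand (chromosome 12, 112907819 to 112929776, reverse strand), was 0.147 to 0.252 TPM in Scr SMCs and 0.200 to 0.526 TPM in siKlf4 SMCs. In PDGFR-β+ cells it was 0.117, 0.143 and 0.119 TPM under Scr and 0.565, 0.298 and 0.159 TPM under siKlf4. It stayed under the minimum mean of 1 TPM throughout and was not tested. The level of Jag1 was above that of Jag2 in each of the 12 libraries.

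Of Hes1, Hey1, Hey2 and Heyl, Hes1 alone had a group mean above 2 TPM, and it rose with siKlf4 in SMCs and fell in PDGFR-β+ cells. Hes1 lies at chromosome 16, 30064384 to 30067796, forward strand. In SMCs, it was 0.783, 1.52 and 1.83 TPM under Scr and 7.70, 8.66 and 7.83 TPM under siKlf4. The lowest siKlf4 library was more than 4 times the highest Scr library, and the ratio of mean TPM was 5.86. On the log2(TPM + 1) scale, which understates changes from so low a level, Hes1 rose by 1.96 (SE 0.19, limma adjusted p = 0.0012), and with a pseudocount of 0.1 by 2.54. With the numbered libraries alone the increase was 1.79 (adjusted p = 0.0040). In PDGFR-β+ cells, Hes1 was 42.5, 56.4 and 39.2 TPM under Scr and 31.6, 30.5 and 27.4 TPM under siKlf4. All siKlf4 libraries were below all Scr libraries, Scr replicate 2 being the highest, and Hes1 fell by 0.59 (SE 0.14, adjusted p = 0.012). Even after these opposite changes, the siKlf4 level in SMCs, 8.07 ± 0.521 TPM, remained below that in siKlf4 PDGFR-β+ cells, 29.9 ± 2.17 TPM.

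Hey1, Hey2 and Heyl, basic helix-loop-helix repressors that act in vessel and heart development, were near or under 1 TPM. Hey1 (chromosome 3, 8663359 to 8667256, reverse strand) was listed at 0 in 2 Scr SMC libraries and did not exceed 0.181 TPM in any SMC library. In PDGFR-β+ cells, Hey1 was 0.622, 1.78 and 1.21 TPM under Scr and 1.58, 1.060 and 1.63 TPM under siKlf4. These groups overlapped, with a difference of 0.16 (95% interval -0.37 to 0.70, limma adjusted p = 0.60). Hey2 (chromosome 10, 30832359 to 30842801, reverse strand) was 0.126 to 0.219 TPM in Scr SMCs and 0.265 to 0.437 TPM in siKlf4 SMCs, under the minimum for a test. In PDGFR-β+ cells, Hey2 was 0.882, 0.754 and 0.864 TPM under Scr and 1.69, 1.14 and 0.796 TPM under siKlf4, and its difference of 0.25 had a 95% interval of -0.20 to 0.69 (limma adjusted p = 0.33). Its Scr mean there was 0.833 TPM, so that it reached the minimum for this test only through the siKlf4 libraries. Heyl (chromosome 4, 123233556 to 123249875, forward strand) was listed at 0 in 10 of the 12 libraries and at no more than 0.0237 TPM in the others, so its response could not be read from these data.

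Counted together, 3 of the 5 members tested in SMCs passed the threshold, Hes1 and Notch2 being higher and Notch3 lower, beside 28.5% of the 13709 genes tested there (15.6% higher, 12.9% lower). In PDGFR-β+ cells, 4 of 7 passed, Notch1, Notch2 and Jag1 being higher and Hes1 lower, beside 40.6% of 13694 genes (25.3% higher, 15.3% lower). The treatment groups did not overlap for 4 of the 5 members tested in SMCs, beside 47.1% of all genes tested, and for 4 of 7 in PDGFR-β+ cells, beside 53.8%. The median log2 difference of the members tested was 0.19 in SMCs, where it was 0.017 for all genes, and 0.25 in PDGFR-β+ cells, where it was 0.097 for all genes. The median of 0.25 is the value of Hey2, which reached the minimum there only through its siKlf4 libraries. The 4 members not tested in SMCs were Jag2, Hey1, Hey2 and Heyl, and the 2 not tested in PDGFR-β+ cells were Jag2 and Heyl, all with means under 1 TPM. A median-ratio scaling of the libraries lowered the median of all genes by 0.10 in PDGFR-β+ cells, and there Notch1 was 0.99, Notch2 0.38, Jag1 0.84 and Hes1 -0.70, each still past the threshold. With that scaling the genes called in PDGFR-β+ cells divided into 2639 higher and 2977 lower, in place of 3461 higher and 2098 lower.

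**Figure D3:**
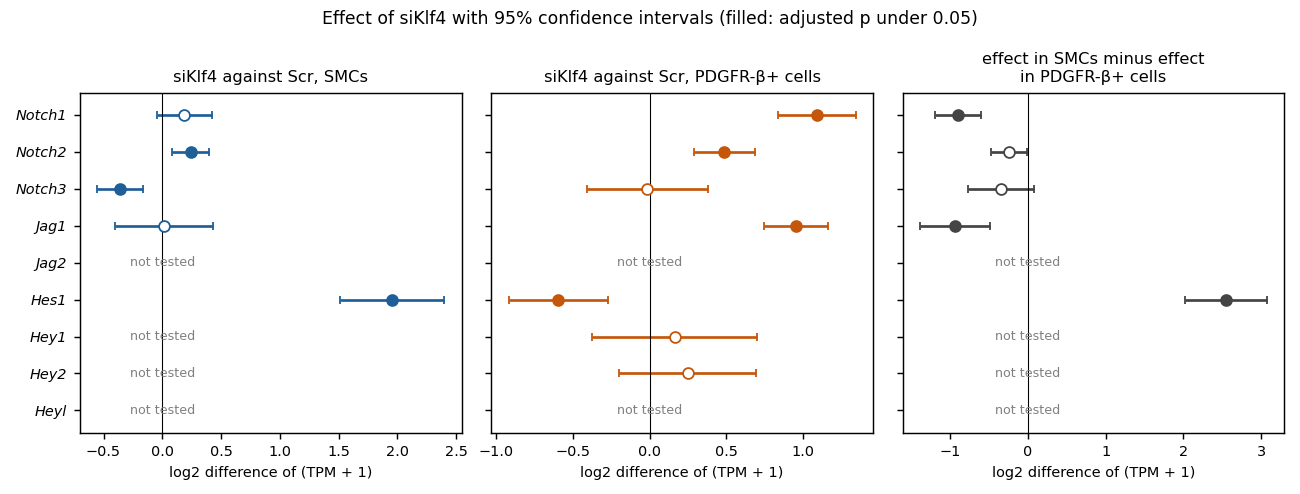
Difference of log2(TPM + 1) between siKlf4 and Scr for each gene (x axis), in SMCs, in PDGFR-β+ cells, and the difference between these effects. Points are limma estimates, bars 95% confidence intervals, and filled points passed an adjusted p of 0.05; genes under the minimum level are marked as not tested. Notch1 and Jag1 lie to the right of 0 in PDGFR-β+ cells, and Hes1 lies on opposite sides of 0 in the 2 cell types.

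Whether the response to siKlf4 differed between the cell types was tested by the interaction term over all 12 libraries. It passed the threshold for 33.0% of the 13032 genes tested and for 3 of the 5 members tested, 1 with the higher effect in SMCs (14.5% of all genes) and 2 with the lower (18.5%). The effect on Hes1 was higher in SMCs by 2.55 on the log2 scale (SE 0.24, limma adjusted p = 2.3e-05). For Notch1 (-0.90, SE 0.14, adjusted p = 0.00048) and Jag1 (-0.94, SE 0.20, adjusted p = 0.0047), the effect was lower in SMCs. Notch2 was called higher in both cell types, though in SMCs the call was lost when any 1 library was left out. Its effects differed by -0.24 (95% interval -0.47 to -0.016, adjusted p = 0.093). Although Notch3 passed the threshold in SMCs and not in PDGFR-β+ cells, its effects were not shown to differ (-0.35, 95% interval -0.77 to 0.075, adjusted p = 0.19). The level of Klf4 fell less in SMCs, with an interaction of 1.19 (SE 0.19, adjusted p = 0.00069), and the part of knockdown depth in these differences was not tested.

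Marker lists were also read in the siKlf4 libraries. The counts of markers called stand beside 15.6% of all genes higher and 12.9% lower in SMCs. In PDGFR-β+ cells, these shares of all genes were 25.3% and 15.3%. With siKlf4, smooth muscle markers in SMCs summed to 3434 to 4207 TPM, above the Scr range, with 7 of 9 tested higher and none lower; Myh11, smooth muscle myosin, was 15.2 to 16.0 TPM under Scr and 40.7 to 61.9 TPM under siKlf4. Fibroblast markers in siKlf4 SMCs summed to 3740 to 3910 TPM, with 5 of 8 lower, and endothelial markers to 11.4 to 12.5 TPM, with 1 of 2 tested, Kdr, higher. Kdr averaged 0.663 TPM in Scr SMCs, so that it reached the minimum for this test only through the siKlf4 libraries in which it was high. In siKlf4 PDGFR-β+ cells, smooth muscle markers summed to 4745 to 5048 TPM (4 of 9 tested higher, 3 lower), fibroblast markers to 3220 to 4419 TPM (2 of 7 lower), pericyte and lineage markers to 332 to 425 TPM (1 of 4 higher, 2 lower), endothelial markers to 17.1 to 19.7 TPM (1 of 3 higher) and leukocyte markers to 19.1 to 22.9 TPM (2 of 3 lower). Of the markers called lower there, Des averaged 0.756 TPM and Csf1r 0.775 TPM with siKlf4, so that they reached the minimum only through the Scr libraries. The 2 leukocyte calls were Csf1r and Lyz2. The pericyte and lineage list in SMCs was 234 to 241 TPM under Scr and 197 to 224 TPM under siKlf4 (1 of 7 tested higher, 1 lower), and no epithelial marker reached the minimum for a test. In bulk libraries, fewer cells of a type and less RNA per cell cannot be told apart, and the part of these marker shifts in the Notch changes was not tested.

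Beyond the 9 genes, 54 other genes of the pathway were examined in 6 lists, and more of them passed the threshold in PDGFR-β+ cells than in SMCs. In SMCs, 4 of 45 tested passed the threshold (8.89%, beside 28.5% of all genes), 2 higher and 2 lower, with a median of -0.0016. Without the unnumbered Scr library, 8 passed. In PDGFR-β+ cells, 16 of 42 passed (38.1%, beside 40.6% of all genes), 11 higher and 5 lower, with a median of 0.13. Neither share exceeded that of all genes tested.

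Of the 15 genes of the nuclear complex and its corepressors, 7 were higher and none lower in PDGFR-β+ cells (46.7%, beside 40.6% of all genes). By direction, 25.3% of all genes were higher there and 15.3% lower. That lean of all genes depends on the scaling, since median-ratio scaling gave 2639 higher and 2977 lower. Rbpj, the DNA-binding partner of every Notch receptor, was 134 to 138 TPM under Scr and 268 to 292 TPM under siKlf4. Its groups were far apart, and it rose 2.07-fold by mean TPM (log2 1.04, SE 0.063, limma adjusted p = 3.1e-05). The Groucho-type corepressor Tle4 (1.099, SE 0.089, adjusted p = 0.00012) and the histone deacetylase Hdac1 (0.61, SE 0.059, adjusted p = 0.00026) also rose. In SMCs, 2 of the 15 were higher and 1 lower (20.0%, beside 28.5% of all genes). The coactivator Maml1 rose by 0.37 (SE 0.079, adjusted p = 0.015; not called with a replicate block on the numbered libraries, adjusted p = 0.055) and the corepressor Tle3 by 0.45 (SE 0.10, adjusted p = 0.017; not called without Scr replicate 2, siKlf4 replicate 2 or siKlf4 replicate 3), while Tle2 fell by 0.68 (SE 0.12, adjusted p = 0.0074). Rbpj in SMCs was 160 to 198 TPM under Scr and 199 to 214 TPM under siKlf4. The groups did not overlap, but the difference of 0.25 did not pass the threshold (95% interval 0.028 to 0.47, adjusted p = 0.088), and it passed in 4 of 11 alternative fits and without the unnumbered Scr library.

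The cleavage list holds the proteases that cut Notch receptors and ligands, and its metalloproteases Adam10 and Adam17 fell in PDGFR-β+ cells. Of the 9 genes of the cleavage list, 8 were tested there, of which 1 was higher and 2 lower (37.5%, beside 40.6% of all genes). Adam10, the metalloprotease that makes the first ligand-induced cut, fell from 134 ± 11.6 to 76.0 ± 21.2 TPM (log2 -0.85, SE 0.20, limma adjusted p = 0.013), and Adam17 fell by 0.47 (SE 0.081, adjusted p = 0.0033; not called with both cell types in a single fit, adjusted p = 0.098). Psen2, a catalytic subunit of γ-secretase, rose by 0.46 (SE 0.11, adjusted p = 0.015), a call lost without Scr replicate 1. In SMCs, all 9 were tested and none passed the limma threshold, beside 28.5% of all genes, while 2 had an unadjusted p under 0.05.

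Among the 5 glycosylation genes, whose products add sugars to the receptors, 4 were tested in each cell type. Poglut1, an O-glucosyltransferase, fell in PDGFR-β+ cells from 53.3 ± 1.91 to 26.6 ± 2.67 TPM (log2 -0.98, SE 0.090, limma adjusted p = 0.00020), the 1 call among the 4 there (25.0%, beside 40.6% of all genes). None passed in SMCs, beside 28.5% of all genes, and 1 had an unadjusted p under 0.05 there. Of the 13 genes of endocytosis and ubiquitination, 2 of 11 tested were higher and 2 lower in PDGFR-β+ cells (36.4%, beside 40.6% of all genes). The ubiquitin ligase subunit Fbxw7, which marks the intracellular domain for decay, rose by 0.61 (SE 0.11, adjusted p = 0.0034). Numb, an endocytic inhibitor of Notch, fell by 0.39 (SE 0.11, adjusted p = 0.025), and the ligand-directed ubiquitin ligase Neurl1a fell by 0.60 (SE 0.17, adjusted p = 0.025), though both lost their calls when PDGFR-β+ Scr replicate 1, siKlf4 replicate 2 or siKlf4 replicate 3 was left out, as did Neurl1a without Scr replicate 2. In SMCs, 1 of 12 tested passed (8.33%, beside 28.5% of all genes): Dtx4, a Deltex ubiquitin ligase, fell from 35.8 ± 6.94 to 15.9 ± 1.59 TPM (log2 -1.11, SE 0.14, adjusted p = 0.0030).

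Among the 6 other receptors and ligands, Dll1, a Delta-type ligand, rose in PDGFR-β+ cells from 0.683 ± 0.223 to 2.83 ± 1.12 TPM (log2 1.15, SE 0.24, limma adjusted p = 0.0076). Its Scr mean was under 1 TPM, so that it reached the minimum for this test only through the siKlf4 libraries in which it was high. With no filter on low values, the adjusted p was 0.023. In SMCs it was 3.35 ± 0.753 TPM under Scr and 2.59 ± 1.04 TPM under siKlf4, a difference of -0.30 (adjusted p = 0.39). None of the 4 tested there passed, beside 28.5% of all genes, or had an unadjusted p under 0.05. Dll4, the Delta ligand of endothelial tip cells, did not exceed 0.082 TPM in any library. Of the 6 other targets and feedback genes, only Hes6, named here after its values were seen, reached the minimum in each cell type (18.9 ± 2.33 TPM in Scr SMCs, 16.8 ± 1.13 TPM in Scr PDGFR-β+ cells), and it passed in neither (log2 differences 0.29 and -0.0026, adjusted p = 0.13 and 0.98). Nrarp, a feedback inhibitor induced by Notch in many tissues, was at most 0.222 TPM.

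Between the Scr groups, 15 of the 45 pathway genes tested passed (33.3%, beside 47.7% of all genes). Each of the 15 was higher in SMCs, beside 24.4% of all genes higher and 23.3% lower. Rbpj was among the 15 (0.35, SE 0.096, limma adjusted p = 0.018; not called without PDGFR-β+ Scr replicate 1), as was Dll1 (1.36, SE 0.19, adjusted p = 0.00077), which reached the minimum only through the SMC libraries. Of the genes tested, Dtx1 and Aph1c, named here after their values were seen, likewise reached it only through the SMC libraries. Dtx1 averaged 2.24 TPM in Scr SMCs and 0.312 TPM in Scr PDGFR-β+ cells, and Aph1c 1.85 and 0.379 TPM. Over the interaction, 13 of 42 passed (31.0%, beside 33.0% of all genes), 4 with the higher effect in SMCs and 9 with the lower.

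**Figure D4:**
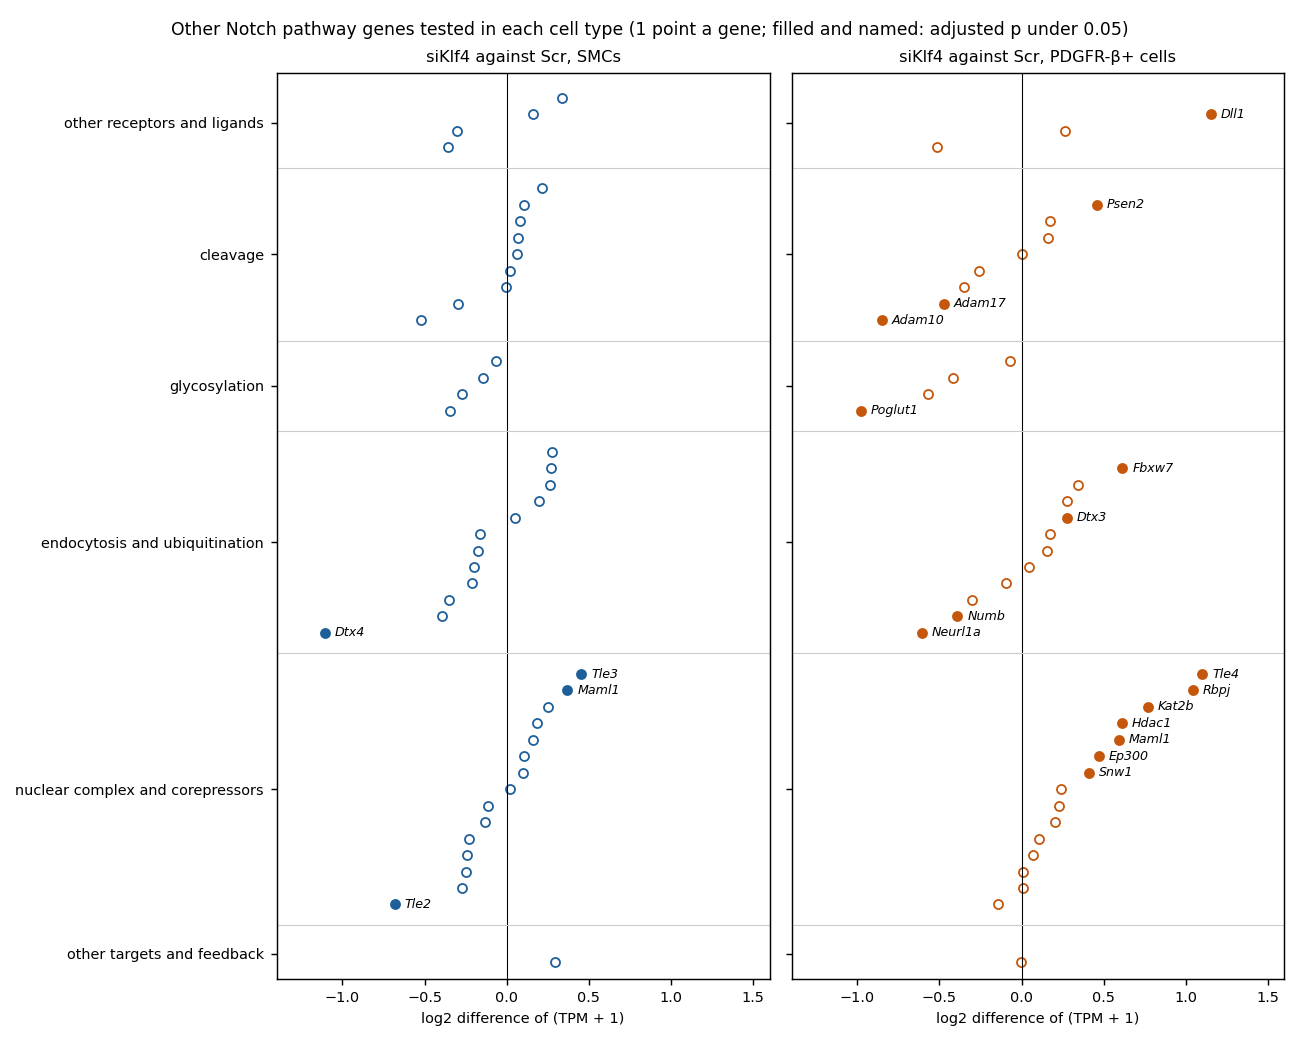
Difference of log2(TPM + 1) between siKlf4 and Scr (x axis) for the other pathway genes tested, 1 point a gene, grouped by list (y axis), in SMCs and PDGFR-β+ cells. Filled and named points passed an adjusted p of 0.05: 2 lie right and 2 left of 0 in SMCs, and 11 right and 5 left in PDGFR-β+ cells, where all 7 filled points of the nuclear complex lie to the right. Beside them, 15.6% of all genes were higher and 12.9% lower in SMCs, and 25.3% and 15.3% in PDGFR-β+ cells.

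The genes whose pattern was nearest to each member were found over the 12 libraries, as the smallest root mean square difference of mean-centered log2(TPM + 1) among 13031 genes. Notch1 was followed most closely by Thap6 (0.088) and Ccar2 (0.093), where its own spread about its mean was 0.40. Notch2 was nearest to Arhgef7 (0.056) and Pi4k2a (0.065), against a spread of 0.22. For Notch3, the nearest were Sbno2 (0.10) and Carns1 (0.12), against 0.48. Jag1 was nearest to Srxn1, the sulfiredoxin gene, at 0.20 and to Snai2, a mesenchymal zinc finger repressor, at 0.20, against 0.86. For Hes1, the nearest were Kdr, which encodes a VEGF receptor, at 0.43 and Esm1 at 0.45, against 1.69. Kdr itself averaged 0.663 TPM in Scr SMCs, 2.88 TPM in siKlf4 SMCs, 15.3 TPM in Scr PDGFR-β+ cells and 12.5 TPM in siKlf4 PDGFR-β+ cells. These distances rest on 4 groups that differ in cell type and treatment and are descriptions only.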

How the data were processed

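Bulk RNA-seq of 12 libraries was analyzed. After trimming, the authors mapped reads with HISAT2 (mm10, GENCODE genes) and quantified them with StringTie and ballgown. They deposited TPM per gene and library, with a separate table for each cell type. Versions of HISAT2, StringTie and ballgown are not given in the sources used here. TPM fixes each library's total and keeps no depth, so a rise in abundant genes lowers all others, and the study's DESeq2 test on counts was not repeated. Values were tested as log2(TPM + 1) with limma 3.58.1 in R 4.3.3 (lmFit, eBayes with trend, two-sided, Benjamini-Hochberg over all genes tested, threshold 0.05), each cell type alone, keeping genes whose mean over its 6 libraries reached 1 TPM. The interaction used all 12 libraries, for genes reaching 1 TPM in both cell types. Scripts were tested on simulated data. The members and lists were chosen with earlier results of these data known; 2 genes of the pathway lists are not reported here and were left out of their counts. All 9 members and Klf4 were named, with the 3 lowest adjusted p-values past 0.05 of each pathway list, Notch4, Dll1, Dll4, Rbpj and Nrarp, and the 2 nearest genes of each expressed member; Kdr and Myh11 are named as markers. Positions come from GENCODE M21 on GRCm38 (2 of the 9 members, Notch3 and Hes1, matched without the version), promoters from RefSeq. Of the SMC columns, 1 of each treatment is unnumbered and was used without pairing. Alternatives were other pseudocounts, filters, scalings, variance priors, samples in the fit, a replicate block and leaving out each library.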

Additional observations from a re-analysis of the deposited data

Results flagged for a closer look

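The following genes had responses to siKlf4 that differed between SMCs and PDGFR-β+ cells by the interaction term of limma (effect in SMCs minus effect in PDGFR-β+ cells, log2 scale, adjusted p under 0.05, beside 33.0% of all genes tested). Of the 9 genes, Notch1 differed by -0.90, Jag1 by -0.94 and Hes1 by 2.55, and Klf4 itself differed by 1.19. Of the ligands, receptors and enzymes of the pathway, Dll1 differed by -1.46, Adam10 by 0.92, Poglut1 by 0.83, Numb by 0.59 and Dtx4 by -0.81. Dll1 was under 1 TPM in Scr PDGFR-β+ cells and entered this test only because its siKlf4 libraries there were high. With no filter on low values, the adjusted p was 0.029 for Dll1 and 0.053 for Adam10, which then lost its call. Of the nuclear components, Rbpj differed by -0.79, Tle4 by -1.001, Tle3 by 0.44 and Hdac1 by -0.59. Hes1 is the member whose 2 effects were past the threshold in opposite directions, with all 3 siKlf4 libraries above Scr in SMCs and all 3 below Scr in PDGFR-β+ cells. Klf4 retained 21.9% of its Scr level in SMCs and 9.16% in PDGFR-β+ cells, and the part of this in the other differences was not tested.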

How the results depend on the processing

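In PDGFR-β+ cells, the 4 member calls stood in each of the 8 alternatives and in each fit without 1 library; those between the Scr groups stood likewise, with 4 to 6 members called. The interaction calls of Notch1 and Jag1 stood in each alternative, and that of Hes1 in the 7 that tested it; Notch2 gained one under quantile normalization (-0.26, adjusted p = 0.044). In SMCs, Hes1 kept its call in the 10 alternatives that tested it. Notch2 lost its call in 4 of 11 alternatives and Notch3 in 2 of 11. Leaving out 1 library gave 2216 to 3563 genes called in SMCs, in place of 3910, and 1 to 2 members, in place of 3. It moved Jag1 in SMCs between -0.096 and 0.20, Notch3 in PDGFR-β+ cells between -0.19 and 0.084, Hey1 there between -0.040 and 0.35, and Notch2 between the Scr groups from -0.078 to 0.024, none of them called. The 4 other pathway genes called in SMCs became 3 to 8 when 1 library was left out, 8 with both cell types in a single fit, 9 with the numbered libraries alone, and 13 with a term for the unnumbered libraries. In PDGFR-β+ cells, same-numbered libraries did not deviate together (correlations 0.073, -0.016 and 0.0043), and a replicate block left 4 members called and 5641 genes. In SMCs, the 2 numbered pairs correlated at 0.19 and 0.20 and the 2 unnumbered libraries at 0.36, all other pairs of an Scr with a siKlf4 library being at or under 0.050. This hints at pairing. The columns of the unnumbered libraries also share a name stem that no other column has, but no label gives them a replicate number or states that they are a pair. A replicate block on the numbered pairs left 1 member called, Hes1, and 2853 genes, and Maml1 lost its call (0.33, adjusted p = 0.055). A block with the unnumbered libraries as a level of their own, chosen after seeing the data, left 3 members called, 4872 genes and 9 other pathway genes. Under median-ratio scaling, the interaction calls divided into 2412 higher and 2000 lower, in place of 1886 and 2411. With TPM alone, depth is unknown, and genes under 1 TPM (Jag2, Heyl, and Hey1 and Hey2 in SMCs) could not be assessed.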
